A study of Homo sapiens with 36 samples.

Results

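The 39 protein-coding HOX genes of the HOXA, HOXB, HOXC and HOXD clusters were followed through 3 related A2780 ovarian cancer lines. They were taken by symbol alone from the 57820 genes of the count table. The 4 clusters behaved differently. HOXA genes were silent in every line. HOXD3 and HOXD8 to HOXD11, on in the parental line, were off in its cisplatin-resistant derivative. HOXB5 to HOXB9 were lower in the resistant line and rose far above the parental level in the derivative that had regained growth without serine and glycine. HOXC6, HOXC8, HOXC9 and HOXC10 stayed on throughout. HOXC10 was the highest of these in untreated cells of both derived lines, and in the parental line under carboplatin.

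HOX genes encode homeodomain transcription factors that give cells their position along the body axis. Within a cluster the genes lie in the order of their paralog numbers, and low-numbered (anterior) genes are used nearer the head and high-numbered (posterior) genes nearer the tail. Silent clusters are held by Polycomb repressors and active ones by Trithorax proteins, retinoic acid and CDX factors switch them on in the embryo, and the proteins bind DNA with PBX and MEIS partners. In the female reproductive tract, posterior HOXA genes mark successive parts of the Müllerian duct.

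HOXA, on chromosome 7, has 11 genes. On GRCh37, HOXB spanned chr17:46605888-46806112 with 10 genes, HOXC chr12:54332615-54449814 with 9 and HOXD chr2:176957449-177055635 with 9. Paralogs 1 to 3 are called anterior here, 4 to 8 central and 9 to 13 posterior.

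A2780 is an established human ovarian cancer cell line. A2780 wt is the platinum-sensitive parent, A2780 cis its isogenic partner made by long exposure to cisplatin, and A2780 cis SSP the cis cells that resumed growth after a prolonged stay without serine and glycine and re-expressed the serine synthesis enzymes. Each line was grown untreated, with carboplatin (carbo, which the labels give as 6 M, where a micro sign is probably missing), without serine and glycine (-SG), or with both changes, giving 12 conditions of 3 libraries and 36 libraries in all. Each line was derived once, so a change that came with the treatment and one that came with that derivation cannot be told apart. The study's legends call the replicates technical, so p-values measure only the spread between these libraries. In bulk RNA, fewer cells that use a gene and less RNA per cell cannot be told apart.

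Libraries held 13074937 to 20441582 counts on genes, with a median of 17663485. Libraries 25 (cis SSP) and 32 (cis SSP -SG) stood apart from their own replicates: pairs that included them had a mean chi-square per gene of 103 or more, against at most 25.6 in all other pairs. Calls that changed without them are given beside the results they touch. Of 11 ovarian and Müllerian epithelial markers, 2 were detected in wt, 2 in cis and 2 in cis SSP, and their summed level was 1.78 to 2.44 CPM (counts as a rate of the library's total, scaled by TMM normalization) in wt, 16.7 to 19.96 in cis, 45.1 to 48.6 in cis -SG and 9.87 to 16.1 in cis SSP. WT1, SOX17, EMX2, ESR1 and KRT7 were at 0 in untreated wt, so these markers of the labelled tissue were not seen there. The 2 markers detected in untreated wt were among the rest of the list. The summed level in the parental line was higher with carboplatin, with 3 of the 11 detected. It was 11.76 to 13.38 CPM in wt carbo and 14.99 to 15.67 in wt -SG carbo. In wt -SG it was 2.01 to 2.31 CPM, with 1 detected. The named genes therefore do not show that the parental line lacked the list as a whole. The 5 fibroblast markers, led by the collagen gene COL3A1, summed to 1590 to 1635 CPM in wt, 3560 to 3666 in cis, 800.3 to 833 in cis -SG and 3113 to 3915 in cis SSP. The 4 immune markers stayed at or under 0.367 CPM and the 2 endothelial markers in the table at or under 0.411 CPM in all conditions. The part of these shifts in the HOX results was not tested.

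Taking a mean of at least 10 counts per library in a condition as detection, 23 of the 39 HOX genes were detected in some condition and 16 were not, while 69.2% of the 19404 protein-coding genes were. Untreated wt used 18 HOX genes (8 HOXB, 5 HOXC and 5 HOXD). Untreated cis and cis SSP each used 15 (9 HOXB and 6 HOXC). With a lower or higher cut on counts the number ran from 14 to 20 in wt, 10 to 19 in cis and 14 to 15 in cis SSP. How the lines compare therefore depends on the cut. The summed HOX level rose from 604 CPM in wt to 739 in cis and 1024 in cis SSP. Its make-up also moved. In wt, HOXC supplied 58.2% of all HOX CPM, HOXB 36.9% and HOXD 4.87%. In cis, HOXC supplied 83.2% and HOXB 16.7%. In cis SSP, HOXB supplied 52.5% and HOXC 47.5%.

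**Figure D1:**
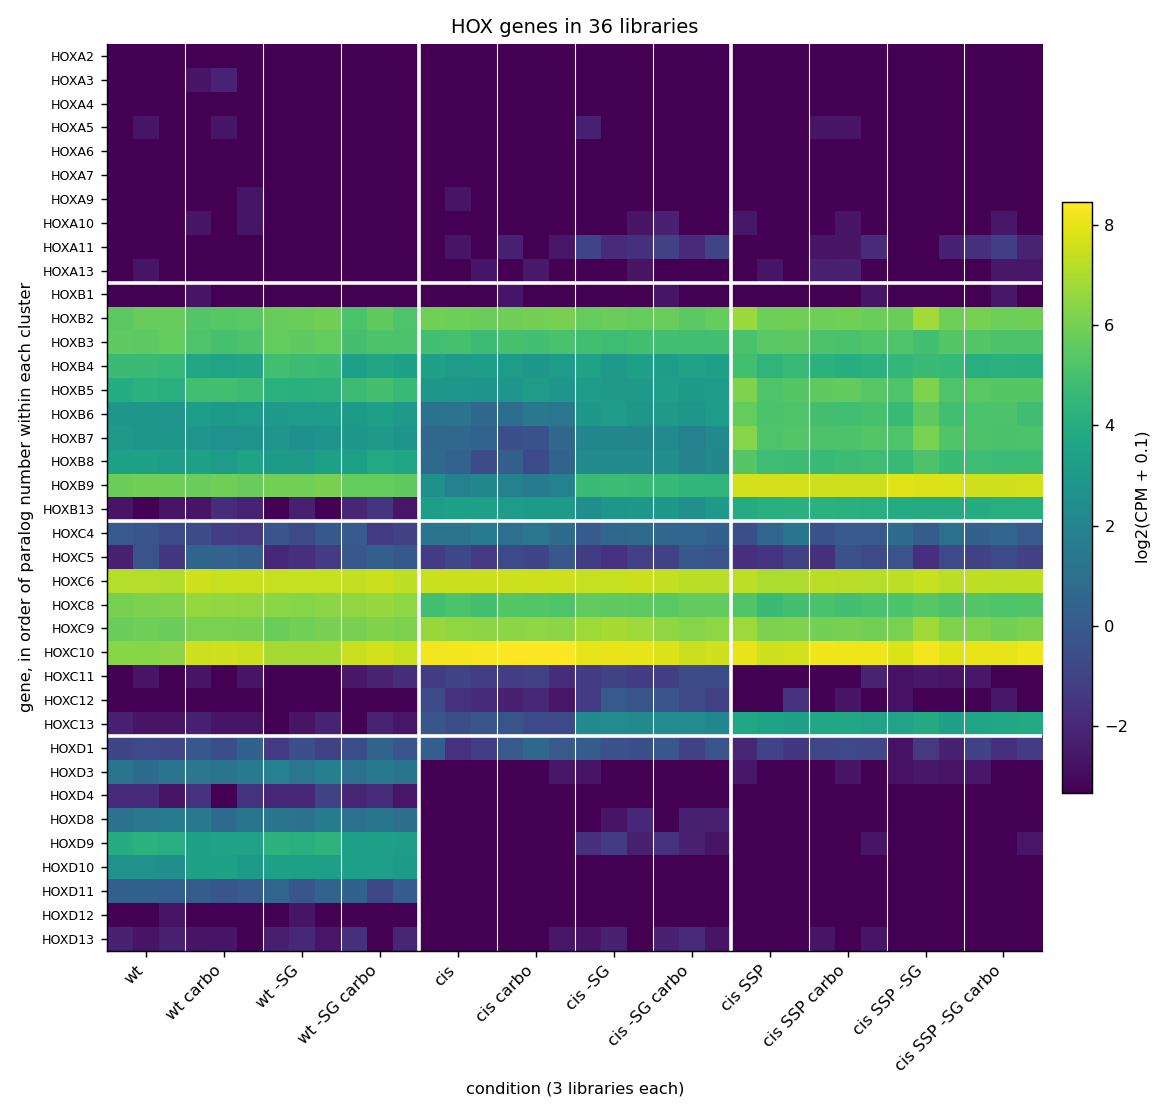
Level of 38 of the 39 HOX genes as log2(CPM + 0.1), coloured from dark (absent) to light (high), with genes in rows by cluster and paralog number and 3 libraries per condition in columns. HOXA rows are dark throughout, HOXD3 and HOXD8 to HOXD11 are lit in the 12 wt libraries and at or near the floor in the 24 cis and cis SSP libraries, and HOXB5 to HOXB9 are brightest in cis SSP.

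The HOXA cluster was silent. Its 11 genes together received 84 counts in all 36 libraries, and HOXA2, HOXA4, HOXA6 and HOXA7 had none. The highest single count was 8, for HOXA11, a posterior gene of the uterus and limb, which had 8, 3 and 4 counts in the cis -SG libraries and 7, 3 and 8 in cis -SG carbo. No HOXA gene had enough counts to be tested between the untreated lines. HIBADH, the tested neighbour within 500 kb, was expressed and was higher in wt than in cis by 0.69 on the log2 scale (edgeR quasi-likelihood test, Benjamini-Hochberg adjusted p = 5.74e-18).

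HOXD3 and HOXD8 to HOXD11 were on in wt and off in cis and cis SSP. HOXD9, a limb and trunk patterning gene at chr2:176987447-176989665, carried most of its signal. It had 282, 328 and 320 counts in wt and none in the 3 libraries of untreated cis or of untreated cis SSP. HOXD10, which acts in the hindlimb and lumbar spinal cord, had 115, 116 and 110 counts in wt and 0 in all 24 cis and cis SSP libraries. HOXD11, a forearm patterning gene, had 20, 21 and 20 counts in wt and also 0 in all 24. The groups did not overlap for any of these genes.

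The anterior and central members followed. HOXD8 had 38, 44 and 54 counts in wt and 0 in untreated cis and cis SSP. HOXD3 had 40, 31 and 43 counts in wt, 0 in cis, and 1, 0 and 0 in cis SSP. The groups were again apart. HOXD4 gave 3, 3 and 1 counts in wt and was at 0 in every cis and cis SSP library. HOXD1, at the anterior end, did not follow the others, with 8, 9 and 9 counts in wt, 16, 4 and 6 in cis and 2, 7 and 5 in cis SSP. Over the 12 libraries of each line it summed to 137 counts in wt, 152 in cis and 61 in cis SSP. HOXD12 and HOXD13 were not detected in any line.

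Against a floor of 3 counts over the cis group, HOXD9 was at least 289-fold lower in cis than in wt. The corresponding bounds were 106-fold for HOXD10, 42.2-fold for HOXD8, 35.4-fold for HOXD3 and 18.9-fold for HOXD11. Against cis SSP they were 277-fold for HOXD9, 102-fold for HOXD10, 40.5-fold for HOXD8 and 18.2-fold for HOXD11, and the ratio for HOXD3, which kept 1 count, was 102 with a 95% counting interval of 17.9 to 4057. These intervals and floors cover counting error only. These genes entered the test through wt alone and had to differ, so no p is given. Without serine and glycine, a trace of HOXD9 returned in cis (4, 6 and 2 counts), while HOXD10 and HOXD11 stayed at 0.

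The 500 kb on either side of HOXD held 3 protein-coding genes, of which 2 were tested. LNPK was higher in wt by 0.72 on the log2 scale (edgeR, adjusted p = 7.84e-15), and MTX2 did not pass the test, with 1273 to 1312 counts in wt and 1087 to 1400 in cis. In cis SSP they had 283 to 518 and 993 to 1165 counts. Within the cluster the antisense transcript HOXD-AS2, which overlaps 24.4% of the HOXD8 exon bases, went from 35 to 55 counts in wt to 0 in cis. HAGLR, an RNA beside HOXD1 named here after its values were seen, had 60 to 73 counts in wt, 49 to 61 in cis and 20 to 39 in cis SSP.

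Promoter sequence from RefSeq (GRCh38.p14) was at hand for 20 of the 39 genes. The 4 windows below belong to HOXD genes that were lost together. Each is the 250 bases before the start site on the + strand, in lower case, with capitals marking a CCAAT box (CCAAT or its reverse complement ATTGG) or a HOX-PBX site (TGATNNAT, either strand). HOXD3 lies at chr2:176157057-176157306, HOXD8 at chr2:176129455-176129704, HOXD10 at chr2:176116528-176116777 and HOXD11 at chr2:176107030-176107279.
HOXD3: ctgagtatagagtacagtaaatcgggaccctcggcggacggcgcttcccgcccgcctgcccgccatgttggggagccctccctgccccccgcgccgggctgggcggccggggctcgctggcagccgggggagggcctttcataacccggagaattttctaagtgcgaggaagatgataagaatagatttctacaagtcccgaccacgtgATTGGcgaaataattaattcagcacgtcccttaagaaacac
HOXD8: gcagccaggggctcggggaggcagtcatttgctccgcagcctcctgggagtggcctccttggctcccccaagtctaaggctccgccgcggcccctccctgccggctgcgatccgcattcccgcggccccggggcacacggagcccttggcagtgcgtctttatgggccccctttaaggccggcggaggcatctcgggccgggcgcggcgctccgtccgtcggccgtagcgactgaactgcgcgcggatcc
HOXD10: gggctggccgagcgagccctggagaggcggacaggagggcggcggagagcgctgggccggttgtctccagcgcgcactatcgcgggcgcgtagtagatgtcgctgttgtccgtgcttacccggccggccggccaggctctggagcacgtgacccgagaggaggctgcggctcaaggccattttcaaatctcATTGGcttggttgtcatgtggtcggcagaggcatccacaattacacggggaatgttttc
HOXD11: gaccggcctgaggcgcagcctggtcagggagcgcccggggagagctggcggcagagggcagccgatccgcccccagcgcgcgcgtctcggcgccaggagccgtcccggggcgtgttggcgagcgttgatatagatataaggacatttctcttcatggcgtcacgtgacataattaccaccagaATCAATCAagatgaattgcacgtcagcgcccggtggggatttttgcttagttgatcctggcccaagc

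HOXD3 and HOXD10 each held a CCAAT box, 41 and 59 bases before the start site. HOXD11 held a HOX-PBX site 67 bases before it, and HOXD8 held none of the motifs searched. Over the 20 HOX windows, CCAAT occurred in 17 (85%) against 32% of 35116 promoters of the same length, TATAAA in 4 (20%) against 10.7%, and TGATNNAT in 3 (15%) against 6.47%. HOXC4 and HOXC5 share a window, so the 20 are not independent. The HOX windows had a median of 20.5 CG dinucleotides against 11 in all promoters, at a median GC content of 59% against 58%. No motif was shared by all 4 windows printed.

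In HOXB the change differed along the cluster. The summed HOXB level was 223 ± 6.65 CPM (SD, n = 3) in wt, 123 ± 7.90 in cis and 537 ± 79.8 in cis SSP. The anterior genes HOXB2 and HOXB3, which act in the hindbrain, changed least. HOXB2 had 819, 940 and 991 counts in wt, 922, 1080 and 956 in cis, and 1469, 968 and 1113 in cis SSP. It was slightly higher in cis, by 0.18 on the log2 scale (SE 0.05; edgeR, adjusted p = 0.00411), and lost the call without wt library 1 (adjusted p = 0.0691). Against cis SSP it did not pass.

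HOXB3 had 853, 843 and 973 counts in wt, 468, 599 and 473 in cis, and 482, 724 and 835 in cis SSP. The wt libraries were all above those of cis, by 0.72 on the log2 scale (SE 0.06; edgeR, adjusted p = 3.81e-12). HOXB4, a gene known for expanding blood stem cells, had 469, 462 and 455 counts in wt, 160, 165 and 171 in cis, and 419, 346 and 463 in cis SSP. It was higher in wt than in cis by 1.41 (SE 0.08) and higher in cis SSP than in cis by 1.40 (SE 0.15), and its cis SSP level of 25.2 ± 4.46 CPM stood beside 25.2 ± 1.13 in wt.

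From HOXB5 onwards cis SSP overshot wt. HOXB5 had 282, 331 and 325 counts in wt, 112, 132 and 121 in cis, and 1017, 617 and 741 in cis SSP. HOXB6 had 125, 136 and 133 counts in wt, 31, 40 and 26 in cis, and 727, 581 and 683 in cis SSP. In both genes the 3 lines did not overlap. HOXB6 shares 16.6% of its exon bases with HOXB3 and 16.3% with the antisense RNA HOXB-AS3, so its counts are less certain.

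HOXB7 had 145, 132 and 141 counts in wt, 22, 27 and 23 in cis, and 1116, 628 and 731 in cis SSP. HOXB8, used in myeloid cells and the lower trunk, had 184, 191 and 177 counts in wt, 23, 22 and 10 in cis, and 583, 471 and 498 in cis SSP. Again the order was cis, wt, cis SSP with no overlap. Library 25 was the highest cis SSP library in CPM for HOXB2, HOXB4, HOXB5, HOXB6, HOXB7 and HOXB8, for example at 78.9 CPM for HOXB7 against 37.6 and 39.7 in the other two.

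HOXB9, a thoracic patterning gene at chr17:46698518-46703720, moved most of its cluster in CPM. It had 1012, 1061 and 1118 counts in wt, 90, 65 and 76 in cis, and 2864, 3445 and 3826 in cis SSP, or 57.8 ± 1.59, 4.58 ± 1.24 and 205 ± 2.72 CPM. It was higher in wt than in cis by 3.71 on the log2 scale (SE 0.08; edgeR, adjusted p = 2.12e-28). It was 45.8-fold higher in cis SSP than in cis (log2 5.52, SE 0.22; adjusted p = 4.03e-05) and higher in cis SSP than in wt by 1.81 (SE 0.09; adjusted p = 1.63e-05). Its 3 cis SSP libraries lay close together, library 25 included.

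Between wt and cis the log2 difference was 0.72 for HOXB3, 1.41 for HOXB4 and 1.29 for HOXB5, and larger from there on, at 1.95 for HOXB6, 2.46 for HOXB7, 3.25 for HOXB8 and 3.71 for HOXB9, all higher in wt. The return in cis SSP over cis was 2.82 for HOXB5, 4.46 for HOXB6, 5.22 for HOXB7 and 4.91 for HOXB8. These comparisons share the cis libraries. The antisense RNA HOXB-AS3 took the same course, at 2.41 CPM in wt, 0.655 in cis and 14.8 in cis SSP.

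HOXB13, a posterior gene of the prostate and hindgut that lies apart from the rest at chr17:46802125-46806112, ran the other way. It had 1, 0 and 1 counts in wt, 142, 195 and 178 in cis, and 215, 280 and 328 in cis SSP. The ratio of cis to wt was 276 with a 95% counting interval of 76.1 to 2289, and that of cis SSP to wt was 461 (127 to 3811). It rose again from cis to cis SSP by 0.76 on the log2 scale (SE 0.12; edgeR, adjusted p = 0.00458). HOXB1 was not detected in any line.

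**Figure D2:**
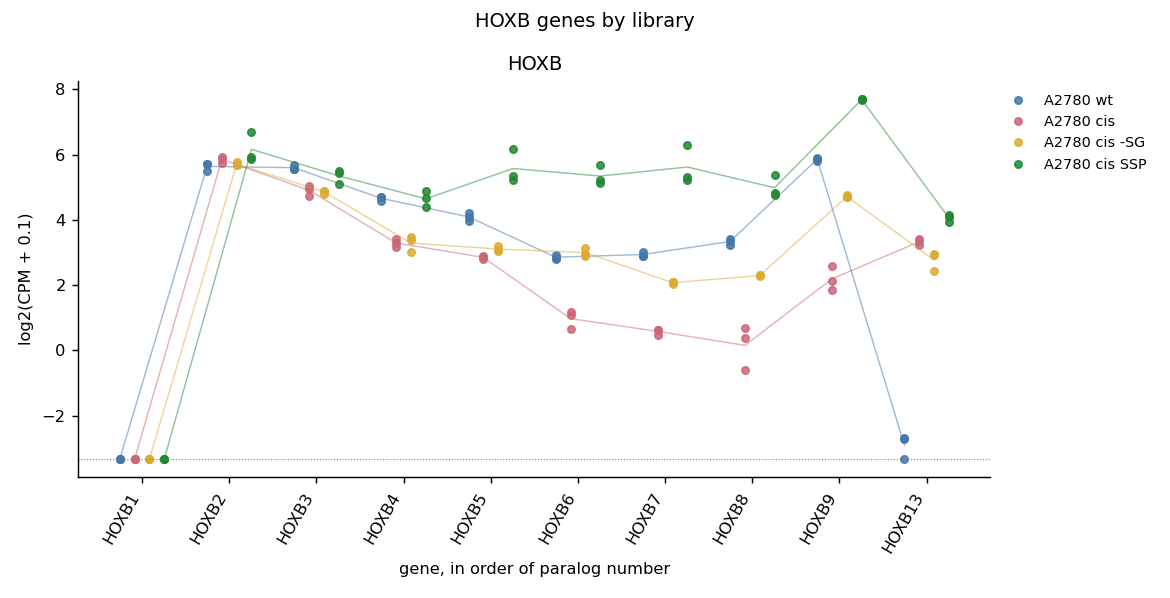
Level of each HOXB gene as log2(CPM + 0.1) in untreated wt, cis and cis SSP and in cis -SG, 1 point per library with lines through the means and a dotted line at 0 CPM. HOXB6 to HOXB9 are lowest in cis and highest in cis SSP with cis -SG above cis, and HOXB13 is near 0 in wt alone.

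HOXC genes were active in all lines, and the leading gene changed. Per kb of exon, the highest HOX levels in wt were HOXC6 at 41.0 CPM per kb, HOXC10 at 35.2, HOXC9 at 33.6 and HOXC8 at 28.6. In cis, HOXC10 reached 130 CPM per kb, ahead of HOXC9 at 54.8 and HOXC6 at 52.2. In cis SSP, HOXC10 at 93.3 ± 16.7 was followed by HOXB9 at 79.5 ± 1.05, a gap within the spread of HOXC10. Under carboplatin HOXC10 led in wt too, at 79.4 CPM per kb against 53.1 for HOXC6 (79.2 against 48.9 in wt -SG carbo). In wt -SG, HOXC10 and HOXC6 stood at 48.9 and 49.4.

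HOXC10, used in the lumbar spinal cord and hindlimb, had 1494, 1490 and 1614 counts in wt, 4617, 5591 and 5577 in cis, and 3775, 3271 and 3706 in cis SSP. All cis and cis SSP libraries were above wt. It was higher in cis than in wt by 1.85 on the log2 scale (SE 0.03; edgeR, adjusted p = 1.16e-42), while its log2 difference of cis over cis SSP was 0.45, short of the threshold (adjusted p = 0.0517). Library 25 lay at 266.9 CPM and libraries 26 and 27 at 195.7 and 201.3, and without library 25 the difference passed (0.59, SE 0.03; adjusted p = 7.86e-18). HOXC9, which sets thoracic motor neuron identity, had 1026, 1030 and 1026 counts in wt, 1491, 1679 and 1502 in cis, and 1520, 1178 and 1344 in cis SSP, and was higher in cis by 0.67 (SE 0.05). Its rise of 0.56 in cis SSP over wt (adjusted p = 0.0412) lost the call without any 1 wt library (adjusted p = 0.116 to 0.136).

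HOXC8, a brachial spinal cord gene, went the other way, with 1175, 1267 and 1374 counts in wt, 444, 643 and 562 in cis, and 536, 441 and 576 in cis SSP. It was higher in wt than in cis by 1.14 (SE 0.05; edgeR, adjusted p = 9.31e-21) and higher in wt than in cis SSP by 1.14 (SE 0.15). HOXC6 had 2573, 2591 and 2654 counts in wt, 2700, 3328 and 3243 in cis, and 2170, 2170 and 2333 in cis SSP, and its largest difference, between cis and cis SSP, was 0.38 (SE 0.11; adjusted p = 0.0394), a call lost without any 1 of cis libraries 13 to 15 or cis SSP libraries 26 and 27 (adjusted p = 0.102 to 0.168). HOXC4 was near the limit, with 16, 13 and 10 counts in wt, 33, 41 and 49 in cis, and 9, 22 and 42 in cis SSP. It shares 17.5% of its exon bases with HOXC6.

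HOXC13, a hair and nail gene at chr12:54332615-54340328 and the most posterior of its cluster, appeared in steps. It had 2, 1 and 1 counts in wt, 12, 11 and 13 in cis, and 179, 191 and 198 in cis SSP. It was 16.6-fold higher in cis SSP than in cis (log2 4.06, SE 0.16; edgeR, adjusted p = 4.03e-05). HOXC11 had 5, 8 and 6 counts in cis and HOXC12 had 8, 4 and 3, both below the detection level, and in cis SSP they had 0, 0 and 0 and 0, 0 and 4. HOXC5, 67.3% of whose exon bases lie in another annotated RNA, stayed under 10 counts on average in untreated cells.

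**Figure D3:**
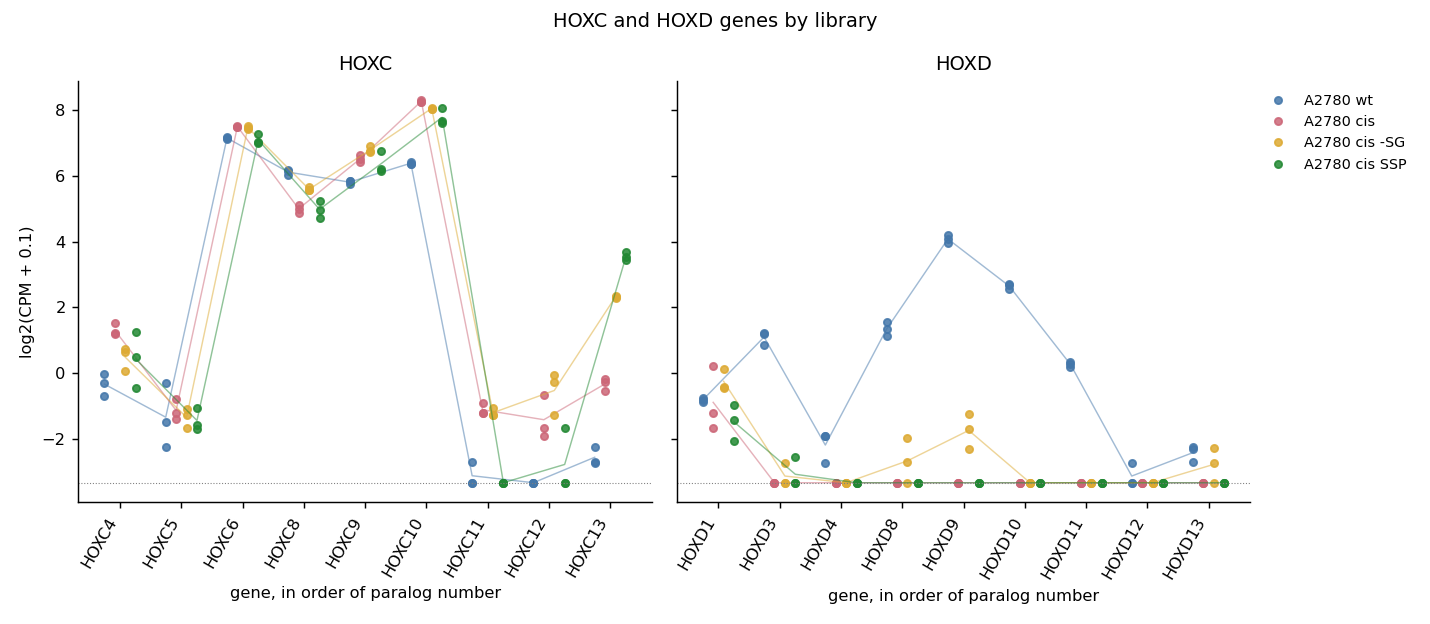
Level of each HOXC gene (left) and HOXD gene (right) as log2(CPM + 0.1) in untreated wt, cis and cis SSP and in cis -SG, 1 point per library with lines through the means and a dotted line at 0 CPM. HOXC6 to HOXC10 are high in every line, HOXC13 climbs from wt through cis and cis -SG to cis SSP, and HOXD3 to HOXD11 are above the floor in wt.

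Some members with wide gaps between the untreated lines were also apart under treatment. Over all 12 libraries of a line, HOXB9 ran from 737 to 1259 counts in wt (median 1012.5), from 38 to 491 in cis (median 236) and from 2811 to 4638 in cis SSP (median 3358). HOXB13 ran from 0 to 4 in wt, 101 to 195 in cis and 214 to 352 in cis SSP. HOXC13 ran from 0 to 2, 7 to 93 and 179 to 249, and HOXD9 from 143 to 399, 0 to 6 and 0 to 1. None of these ranges overlapped between neighbouring lines except that of HOXD9 between cis and cis SSP. HOXB6 did overlap, at 122 to 174 counts in wt and 26 to 164 in cis. These genes were picked for their gaps, the counts are not scaled for library size, and the share of all genes with ranges apart is not given. Small differences turned: in -SG, HOXB2 was higher in wt than in cis by 0.12 on the log2 scale (edgeR, adjusted p = 0.0227), and under carboplatin HOXC9 was higher in wt than in cis SSP by 0.0935 (adjusted p = 0.0250). HOXC10 overlapped more widely, at 1490 to 3471 in wt, 3329 to 6102 in cis and 3271 to 5564 in cis SSP.

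Counted over the family, 20 HOX genes had enough counts to be tested between wt and cis and all 20 passed, 13 higher in wt and 7 higher in cis, where 78.5% of all 14431 genes tested passed (39.1% higher in wt and 39.4% higher in cis). With a log2 difference of at least 1 in addition, 16 passed against 24.6% of all genes. The median absolute log2 difference was 2.21 for the HOX genes and 0.44 for all genes. By cluster it was 1.95 for HOXB, 1.43 for HOXC and 8.47 for HOXD, whose tested genes had 0 counts in cis. Between cis and cis SSP, 9 of 15 passed against 29.1% of all genes, 8 of them higher in cis SSP (15.8% of all genes) and HOXC6 higher in cis (13.3%). Between wt and cis SSP, 15 of 20 passed against 42.4%, 9 higher in cis SSP (20.7% of all genes) and 6 in wt (21.7%). Without library 25, 12 HOX genes passed between cis and cis SSP (65.4% of all genes), with HOXB3 (0.61 higher in cis SSP), HOXC9 (0.30 higher in cis) and HOXC10 added. Between wt and cis SSP, 19 passed without it (73.9%), with HOXB2 and HOXC4 (0.23 and 1.34 higher in cis SSP) and HOXB3 and HOXC6 (0.14 and 0.16 higher in wt) added. Under carboplatin, -SG and both, wt and cis differed at 19 of 21, 18 of 21 and 14 of 21 HOX genes (81.9%, 81.1% and 74.2% of all genes), and cis and cis SSP at 15 of 16, 10 of 16 and 13 of 15 (69.2%, 44.8% and 73.8%). For wt and cis SSP the counts were 21 of 22, 16 of 20 and 17 of 20 (81.1%, 46% and 71.3%). Genes that passed a filter on low counts through the line where they are on had to differ, so these counts and medians are a description.

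**Figure D4:**
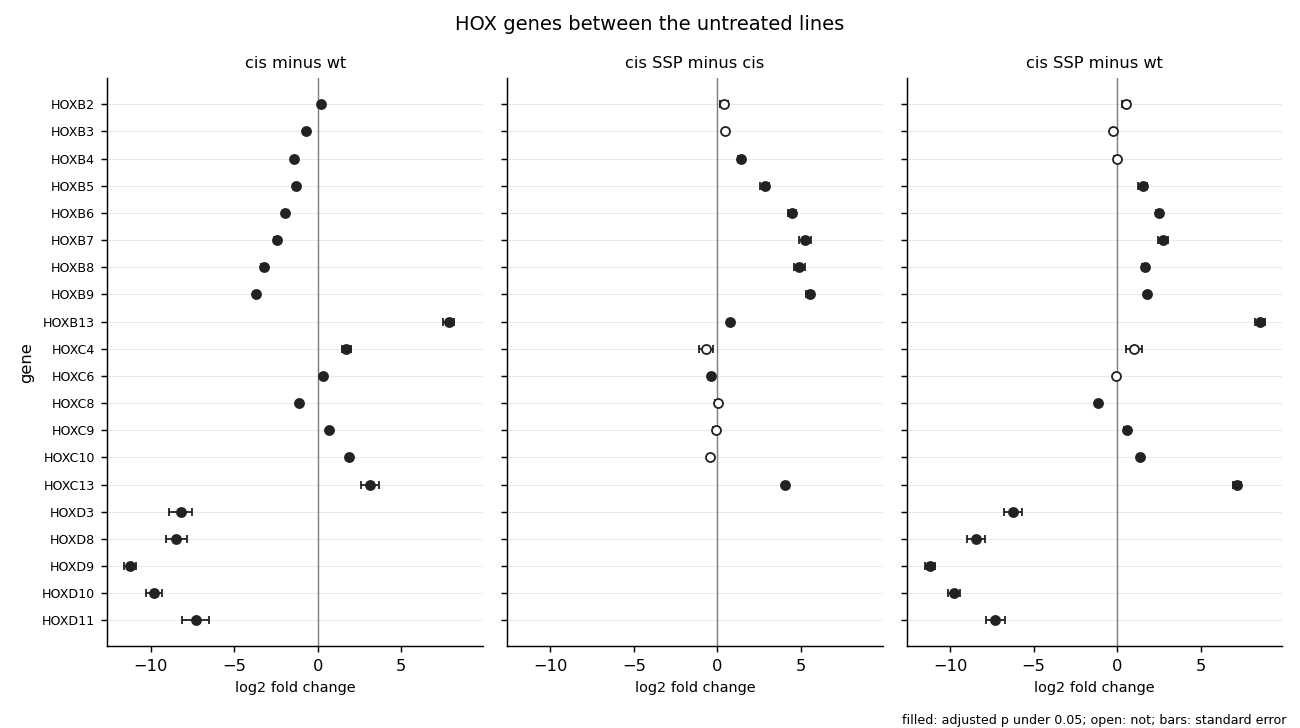
Log2 fold change of each tested HOX gene between untreated lines, for cis minus wt, cis SSP minus cis and cis SSP minus wt, with standard errors as bars and filled points for an adjusted p under 0.05. HOXB5 to HOXB9 lie left of 0 in the first panel and right of it in the other two, while HOXB13 and HOXC13 lie right of 0 in all 3.

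Serine and glycine deprivation raised HOXB6 to HOXB9 in cis, genes that were higher in both wt and cis SSP than in cis. HOXB9 had 490, 491 and 491 counts in cis -SG against 90, 65 and 76 in cis, a rise of 2.56 on the log2 scale (SE 0.10; edgeR, adjusted p = 1.04e-23). HOXB6 had 146, 158 and 141 counts in cis -SG against 31, 40 and 26 in cis. HOXB8 had 90, 89 and 92 against 23, 22 and 10. All deprived libraries were above all complete-medium libraries.

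The same held for HOXB7, with 79, 76 and 77 counts in cis -SG against 22, 27 and 23 in cis. HOXC13 had 93, 92 and 92 counts against 12, 11 and 13. The rises were 2.09 for HOXB6, 1.58 for HOXB7, 2.19 for HOXB8 and 2.82 for HOXC13 on the log2 scale. These levels were still far from cis SSP. Of the CPM distance from cis to cis SSP, cis -SG covered 10.7% for HOXB9, 15.3% for HOXB6, 11.97% for HOXB8 and 5.36% for HOXB7. It covered 3.28% for HOXB5, 0.514% for HOXB4 and 38.6% for HOXC13. The values were negative for HOXB3, HOXB2 and HOXB13 (-9.38%, -34% and -48.1%). HOXC6 and HOXC10 covered 9.01% and 49.7%, while HOXC8 and HOXC9 rose although cis SSP was not above cis. The cis SSP means include library 25, at 78.9 CPM for HOXB7 and 266.9 for HOXC10. Libraries 26 and 27 were at 37.6 and 39.7 for HOXB7 and at 195.7 and 201.3 for HOXC10. The percentages for such genes depend on library 25. Against untreated wt, cis -SG stood at 45.2% for HOXB9, 111% for HOXB6, 48% for HOXB8 and 54.3% for HOXB7.

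In all, 12 of 16 tested HOX genes passed between cis and cis -SG against 75% of all genes, 8 rising (37.6% of all genes) and 4 falling (37.4%). HOXC8, HOXC9 and HOXB5 rose by 0.61, 0.31 and 0.29. HOXC4 fell by 0.82, HOXB13 fell by 0.53, HOXC10 fell by 0.19 and HOXB2 fell by 0.12. With a log2 difference of at least 1, 5 passed against 15.6% of all genes. HOXB4 and HOXB3 did not pass. The calls of HOXB5 (adjusted p = 0.0537 and 0.0706 without library 15 or 19) and HOXB2 (0.0543 to 0.120 without library 13, 14, 19 or 21) rested on single libraries. The rise in HOXB6 brought cis -SG to 7.91 ± 0.656 CPM beside 8.61 ± 0.708 in wt -SG, which did not differ past the threshold (edgeR, adjusted p = 0.241).

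In wt, deprivation called 10 of 18 tested HOX genes, all rising, against 49.2% of all genes (24.1% rising), and every change was under 1 on the log2 scale. Without wt library 1 the count was 6, and between wt carbo and wt -SG carbo it was 0 of 19 by edgeR (1 with an unadjusted p under 0.05), where 0.72% of all genes passed. The largest were HOXD10 at 0.74, HOXD3 at 0.58 and HOXC10 at 0.49. HOXD3 lost its call without library 2, 7 or 9 (adjusted p = 0.0514 to 0.104), and HOXB2, HOXB6, HOXC9 and HOXD9 lost theirs without library 1 or, for some, another library (adjusted p = 0.0513 to 0.210). The response differed between wt and cis, by a test of the difference itself, for 10 HOX genes of 21 (54% of all genes), among them HOXB6, HOXB7, HOXB8 and HOXB9. The 10 include HOXC13 and HOXD9, which passed the count filter only through the line where they were on. In cis SSP, 0 of 15 tested genes passed by edgeR, where 0.0218% of all genes passed. Of these HOX genes, 0 had an unadjusted p under 0.05, and 0 passed by DESeq2. Without libraries 25 and 32, a choice made after seeing the data, 6 passed and so did 35.9% of all genes: HOXC8, HOXC6, HOXC10 and HOXB9 rose by 0.26, 0.25, 0.22 and 0.17, HOXB6 fell by 0.41 and HOXB3 fell by 0.21. The response differed between cis and cis SSP for 5 of 16 genes (17.1% of all genes), HOXB6 to HOXB9 and HOXC13, with the calls of HOXB7 here and of HOXC13 between wt and cis resting on single libraries. Without libraries 25 and 32 the count was 11 (55.4% of all genes), with HOXB5, HOXC6, HOXC8, HOXC9, HOXC10 and HOXD1 added. Under carboplatin, deprivation called 11 of 17 HOX genes in cis (70.2% of all genes) and 2 of 15 in cis SSP (9.76%), HOXC8 at 0.24 and HOXC6 at 0.13 higher.

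**Figure D5:**
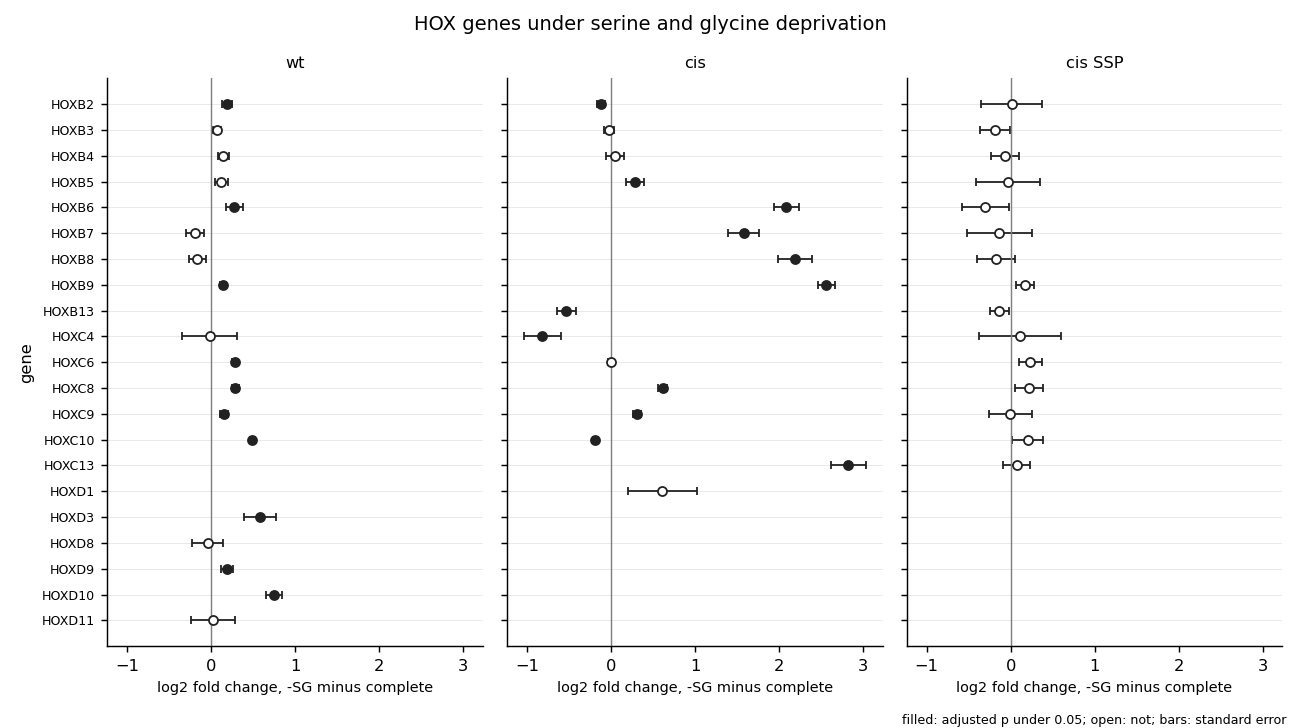
Log2 fold change of each tested HOX gene without serine and glycine, -SG minus complete medium, in wt, cis and cis SSP, with standard errors as bars and filled points for an adjusted p under 0.05. HOXB6 to HOXB9 and HOXC13 lie between 1.58 and 2.82 in cis, and all points of wt and cis SSP lie under 1.

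With carboplatin, single HOX genes moved in wt, though the family as a whole was called no more often than other genes (13 of 19, 77.8% of all genes). HOXC10 had 3471, 3196 and 3159 counts with carboplatin against 1494, 1490 and 1614 without, a rise of 1.19 on the log2 scale (SE 0.03; edgeR, adjusted p = 3e-205). HOXB4 had 243, 193 and 210 counts with carboplatin against 469, 462 and 455, and was lower by 1.01 (SE 0.07; adjusted p = 6.74e-41). Neighbouring HOXB genes went in opposite directions, since HOXB5 had 540, 484 and 465 counts against 282, 331 and 325 and rose by 0.76 (SE 0.06). In none of these genes did the groups overlap.

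Of 19 tested HOX genes in wt, 13 passed with carboplatin with a median absolute log2 change of 0.39 against 0.42 over all genes, 9 rising (38.9%) and 4 falling (39%). HOXC5 rose by 1.71, from 2, 13 and 5 counts to 24, 20 and 18. HOXC5 and HOXD1, both among the 9 rising, passed the count filter through the carboplatin libraries, so their calls are a description only. HOXD1 rose by 0.88 (adjusted p = 0.0540 without library 1 and 0.188 without library 6), HOXD10 by 0.68, HOXC8 by 0.44, HOXC6 by 0.39, HOXB6 by 0.33 and HOXC9 by 0.27. HOXD9 fell by 0.62, HOXB3 fell by 0.45 and HOXB2 fell by 0.24. HOXD9 and HOXD10, which lie side by side, changed in opposite directions in complete medium, with 197, 180 and 190 and 189, 177 and 146 counts under carboplatin. Without serine and glycine, HOXD9 fell by 0.90 with carboplatin and the log2 change of HOXD10 was -0.10, not past the threshold (adjusted p = 0.356). HOXD10 shares 18.2% of its exon bases with HOXD11.

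In cis, 4 of 16 passed against 20.1% of all genes (9.27% rising), all rising: HOXC8 by 0.31, HOXC10 by 0.22, HOXB2 by 0.14 and HOXC6 by 0.09. DESeq2 called 2, and HOXB2 and HOXC6 each lost the call without any of 4 single libraries (adjusted p = 0.0506 to 0.238). In cis -SG the direction turned, and with carboplatin HOXC10 and HOXC6 fell by 0.30 and 0.11, among 3 of 17 called (22.5% of all genes). The carboplatin response differed between wt and cis, by its own test, for 7 of 22 genes (57.6% of all genes): HOXB2, HOXB3, HOXB4, HOXB5, HOXC6, HOXC9 and HOXC10. In cis SSP, 0 of 15 passed by edgeR, where 2.72% of all genes passed. Of these HOX genes, 2 had an unadjusted p under 0.05, and 0 passed by DESeq2. Without library 25, 10 passed and so did 41.2% of all genes, the largest being HOXC4, which fell by 1.17, and HOXC10, which rose by 0.53. Without serine and glycine, carboplatin called 12 of 20 HOX genes in wt (68.9% of all genes) and, by edgeR, 0 of 15 in cis SSP (2 with an unadjusted p under 0.05), where 1.47% of all genes passed.

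The partners and regulators of HOX genes were read from lists. Of 9 cofactors, 8 were tested between wt and cis and all 8 passed, 4 in each direction (78.5% of all genes). PBX3 was higher in wt by 2.34 on the log2 scale, MEIS3 by 1.49 and PBX2 by 1.12 (edgeR, adjusted p = 2.21e-44, 3.02e-28 and 4.17e-23). Between cis and cis SSP, 2 of 7 passed (29.1% of all genes), PBX3 and MEIS3, both higher in cis SSP.

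Of the Polycomb list, 17 of 26 tested genes passed between wt and cis, 6 higher in wt and 11 in cis (78.5% of all genes), with a median absolute log2 difference of 0.17 against 0.44 over all genes. MTF2, an accessory subunit of the Polycomb methyltransferase, was the largest at 1.87, falling from 134 to 37.4 CPM. Of Trithorax and DOT1L genes, 15 of 17 passed, 9 higher in wt and 6 in cis (78.5% of all genes), with a median of 0.20, and AFF1 was higher in cis by 0.91. MLLT3, a gene of few counts named after its values were seen, had 30 to 34 counts in wt and 0 to 3 in cis. Between cis and cis SSP, 3 of 25 Polycomb and 1 of 16 Trithorax genes passed (29.1% of all genes). Between cis and cis -SG, 24 of 26 Polycomb and 15 of 16 Trithorax genes did (75% of all genes).

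The retinoid and CDX list held large changes. Between wt and cis, 9 of 10 tested genes passed, 5 higher in wt and 4 in cis (78.5% of all genes). CRABP2, a retinoic acid carrier, was higher in wt by 6.17 on the log2 scale, and ALDH1A3 and ALDH1A1, which make retinoic acid, and CYP26B1, which breaks it down, were higher in cis by 5.84, 3.83 and 4.97. CRABP1, the sister carrier, had 86 to 89 counts in wt and 0 in untreated cis, cis -SG and untreated cis SSP. CDX2, an inducer of central HOX genes, had 0 counts in wt, 3 to 6 in cis, 40 to 49 in cis -SG and 55 to 84 in cis SSP. CYP26A1, a retinoic acid target, had 2 to 4, 6 to 8, 29 to 50 and 32 to 56. CDX2, CYP26A1 and CRABP1 are named here after their values were seen, and their part in the HOXB changes was not tested.

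Of 18 cluster noncoding RNAs, 7 were tested between wt and cis and 5 passed, all higher in wt, against 78.5% of all genes, with HOXB-AS3 at 1.93, HOXC-AS1 at 0.92 and HOXC-AS2 at 0.56. The protein-coding neighbours within 500 kb moved less. For HOXB, 8 of 9 passed between wt and cis (78.5% of all genes), 3 higher in wt and 5 in cis, with a median absolute log2 difference of 0.32, and IGF2BP1 was higher in wt by 2.58. For HOXC, 13 of 15 passed, 9 higher in wt and 4 in cis, with a median of 0.30. Between cis and cis SSP, 4 of 10 HOXB neighbours and 3 of 15 HOXC neighbours passed (29.1% of all genes).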

How the data were processed

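RNA was measured in 36 libraries of 3 A2780 lines. The authors made total RNA libraries (SENSE Total RNA-Seq), aligned single reads with STAR to GRCh37.p13 and counted exons of GENCODE genes with HTSeq, and the deposited values are raw counts per gene. A strand setting is not given in the sources used here, so overlapping genes are less certain. The 3 rows that name no gene, among them reads in no feature (4.21% to 17.9% of a library), were left out.

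Symbols and positions came from a GENCODE annotation on GRCh37, with 55538 of 57820 IDs matched. Each comparison was fitted on its own libraries with edgeR 4.0.16 in R 4.3.3 (TMM normalization, filterByExpr, quasi-likelihood F-test, Benjamini-Hochberg adjustment over all genes tested, adjusted p under 0.05). Responses were compared between lines by an interaction term. CPM used TMM factors over all 36 libraries. CPM per kb divided by exon length. DESeq2 1.42.0 was an alternative. Scripts were tested on simulated data. Counting ratios are given with 95% intervals.

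HOX genes with a mean of at least 50 counts over all libraries were named with every untreated library, others by range, by 10 counts in a condition or when called, and lists by at most 4 called genes each with the largest log2 differences. The members and lists were chosen with earlier results of these data known. Protein-coding genes within 500 kb of a cluster are its neighbours. Values of some single genes are not reported here.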

Additional observations from a re-analysis of the deposited data

Results flagged for a closer look

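The following HOX genes responded differently in a pair of lines by a test of that difference, the interaction term of the edgeR quasi-likelihood fit with Benjamini-Hochberg adjustment. Each value is a difference of log2 changes, untreated minus treated in the first line less the same in the second, so a positive value means a larger rise or smaller fall with treatment in the second line.

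For carboplatin in wt against cis, the values were 0.39 for HOXB2, 0.59 for HOXB3 and 0.85 for HOXB4. They were -0.63 for HOXB5, -0.29 for HOXC6, -0.34 for HOXC9 and -0.97 for HOXC10, the last with an adjusted p of 9.42e-31. HOXB4 fell and HOXC10 rose in wt by more than in cis.

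For serine and glycine deprivation in wt against cis, HOXB6, HOXB7, HOXB8 and HOXB9 gave 1.83, 1.79, 2.37 and 2.44, and HOXC8 gave 0.35. HOXC13 gave 3.20 (SE 1.12) and HOXD9 gave 4.82 (SE 1.28), both from groups with few or no counts. Each passed the count filter only through the line where it was on, so these values are a description and do not show a differing response. HOXC13 lost the call without wt library 1 (2.79, adjusted p = 0.110). HOXB2, HOXC6 and HOXC10 gave -0.29, -0.27 and -0.66.

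For deprivation in cis against cis SSP, HOXB6 gave -2.38, HOXB7 -1.70, HOXB8 -2.34, HOXB9 -2.37 and HOXC13 -2.74, with adjusted p from 5.74e-05 for HOXC13 to 0.0435 for HOXB7. HOXB7 lost the call without any 1 of libraries 13 to 15, 19 to 21, 31 and 33 (adjusted p = 0.0818 to 0.104). These comparisons share the cis libraries.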

How the results depend on the processing

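Over the alternatives, counts of called HOX genes ran from 14 to 23 for wt against cis, 7 to 15 for cis against cis SSP and 14 to 21 for wt against cis SSP. Leaving out each library in turn gave 19 to 20 for wt against cis, 8 to 12 for cis against cis SSP and 14 to 19 for wt against cis SSP, and comparing cis with cis SSP under carboplatin gave 15. For carboplatin in wt the count was 3 with a log2 difference of at least 1, and in cis it was 0 with that rule, 0 in one fit over all libraries and 2 by DESeq2. In cis SSP it was 3 in the single fit and 0 to 10 with a library left out, 10 without library 25 (41.2% of all genes). For deprivation in wt the count was 4 in the single fit, 5 by DESeq2 and 0 with the fold rule. It was 0 within carboplatin (0.72% of all genes) and 6 to 10 with a library left out, 6 without wt library 1. In cis it was 5 with the fold rule (15.6% of all genes). In cis SSP it was 1 in the single fit, 2 within carboplatin (9.76% of all genes) and 0 with any 1 library left out. It was 6 without libraries 25 and 32 (35.9%), chosen after seeing the data. For interactions, the carboplatin count was 4 in the single fit. The deprivation count of cis against cis SSP was 11 without libraries 25 and 32 (55.4% of all genes). For the other settings the share of all genes is not given, so those counts do not compare HOX genes with other genes. The cause of these moves was not tested.

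Of 1498 values for called genes over 105 results, 1370 kept direction and call, 113 lost the call and 15 reversed. Values are first group minus second. HOXB2 became 0.12 for wt against cis in -SG, and HOXC6 0.12 in -SG carbo. HOXC6 became -0.0019 for cis against cis SSP in -SG carbo. HOXC9 became 0.0935 and 0.0771 for wt against cis SSP under carbo and -SG carbo. For carboplatin within -SG, HOXD10 became 0.10 in wt, and HOXC10 0.30 and HOXC6 0.11 in cis. For deprivation in wt within carbo, HOXB2, HOXB9, HOXC6, HOXC8, HOXD3, HOXD9 and HOXD10 became 0.0409, 0.14, 0.10, 0.0003, 0.0825, 0.10 and 0.0533. No paired analysis was possible because the labels give no replicate numbers.

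Depth limits the low genes: 3 counts over the cis group, the floor used for the fold bounds, correspond to 0.0584 CPM. Levels of HOXA and HOXD genes below that rest on very few counts.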
